A study of Mus musculus with 21 samples.

Results

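The nuclear receptor family was examined here as 46 genes of the 21883 protein-coding genes in the RefSeq annotation of the mouse. Members were chosen by name, and each was given a window made of its annotated gene body plus 25 kb on each side. All 46 matched the annotation. They were divided by textbook use into 15 receptors that work in hepatocytes, 11 that are made in many tissues and 20 that are known mainly from other tissues. The classes were drawn up with earlier results of these data known. Windows of neighbours can share sequence: Nr1d1 and Thra shared 51.1 kb, and Nr5a1 and Nr6a1 shared 41.2 kb, so a peak there belongs to both windows.

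Nuclear receptors are transcription regulators, most of which carry a zinc-finger DNA-binding domain and a pocket for a small lipophilic ligand. Nr0b1 and Nr0b2 encode members that lack that DNA-binding domain. Many bind repeats of the core hexamer AGGTCA, often as heterodimers with a retinoid X receptor, and recruit corepressors or coactivators. In liver they set bile acid, lipid, glucose and drug metabolism, and several of their genes are controlled by other members of the family.

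The study used chromatin immunoprecipitation with sequencing (ChIP-seq) on perfused primary hepatocytes of mice of a mixed C57/B6 and 129 background at postnatal day 90. The libraries labelled WT came from mice with the genotype Arid1a Fl/Fl, which carry floxed alleles and no Cre. Those labelled KO came from Arid1a Fl/Fl; Alb-cre mice, in which the albumin promoter drives Cre in the hepatocyte lineage, so both genotypes share the floxed alleles. ARID1A is a subunit of SWI/SNF chromatin remodellers, and C/EBPα is a leucine-zipper factor of differentiated hepatocytes. C/EBPα was mapped in 2 WT and 2 KO libraries, histone H3 dimethylated at lysine 4 (H3K4me2, found at promoters and enhancers) in 3 WT and 3 KO, and ARID1A through a V5 tag in 1 library of V5-Arid1a mice. The labels do not say whether libraries of one genotype came from different animals, so the spread between them may be technical. Removal of Arid1a cannot be checked in peak lists, and genotypes are as labelled.

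Of C/EBPα peaks, the WT libraries gave 17733 and 23646 and the KO libraries 16178 and 17781. ARID1A gave 5726. The H3K4me2 lists ranged from 24908 to 175794 peaks, both extremes being KO lists, and KO replicate 3, the longest, had a median −log10 q of 1.14 against 2.42 to 4.75 in the WT lists. Sequencing depth is unknown. The C/EBPα and ARID1A lists carry no peak strength, and their numbered peaks make up 40.0% to 40.1% of the highest number, so a missing peak may also be one that was not kept. H3K4me2 peaks lay within 1 kb of an annotated end in all 6 lists at 8 of 8 hepatocyte marker genes, at 0 of 7 Kupffer cell and leukocyte, 0 of 5 endothelial, 1 of 5 stellate cell and 1 of 5 biliary marker genes. All 5 endothelial markers were marked at an end in some list, however, and their median cover per window was 10.04 kb in WT replicate 2, 11.9 kb in KO replicate 2 and 5.53 kb in KO replicate 3, against 0.363, 0.541 and 0 kb in WT replicates 1 and 3 and KO replicate 1. In a bulk preparation, a site bound in fewer cells and a site bound more weakly in each cell cannot be told apart.

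C/EBPα peaks were found in all 4 lists in the windows of 32 of the 46 receptors, or 69.6%, against 39.9% of all protein-coding genes. The 32 comprised all 15 hepatocyte receptors, 9 of the 11 made in many tissues and 8 of the 20 of other tissues. No C/EBPα list had a peak at 8 receptors: Nr1h2 (the ubiquitous liver X receptor β), Rxrb, Hnf4g, Nr0b1, Nr2e1, Nr2e3, Nr2f1 and Rorb. Since windows differ in length, peak numbers were also set per 100 kb as the mean of the 2 WT lists. The median was 4.51 for hepatocyte receptors, 2.06 for those of many tissues and 0.847 for those of other tissues, and 0.662 over all protein-coding genes. The difference between the first and last class was 3.66 peaks per 100 kb, with an SD of 0.468 over the WT lists. It ranged from 2.18, with only the wider peaks, to 5.51, with gene bodies alone.

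**Figure D1:**
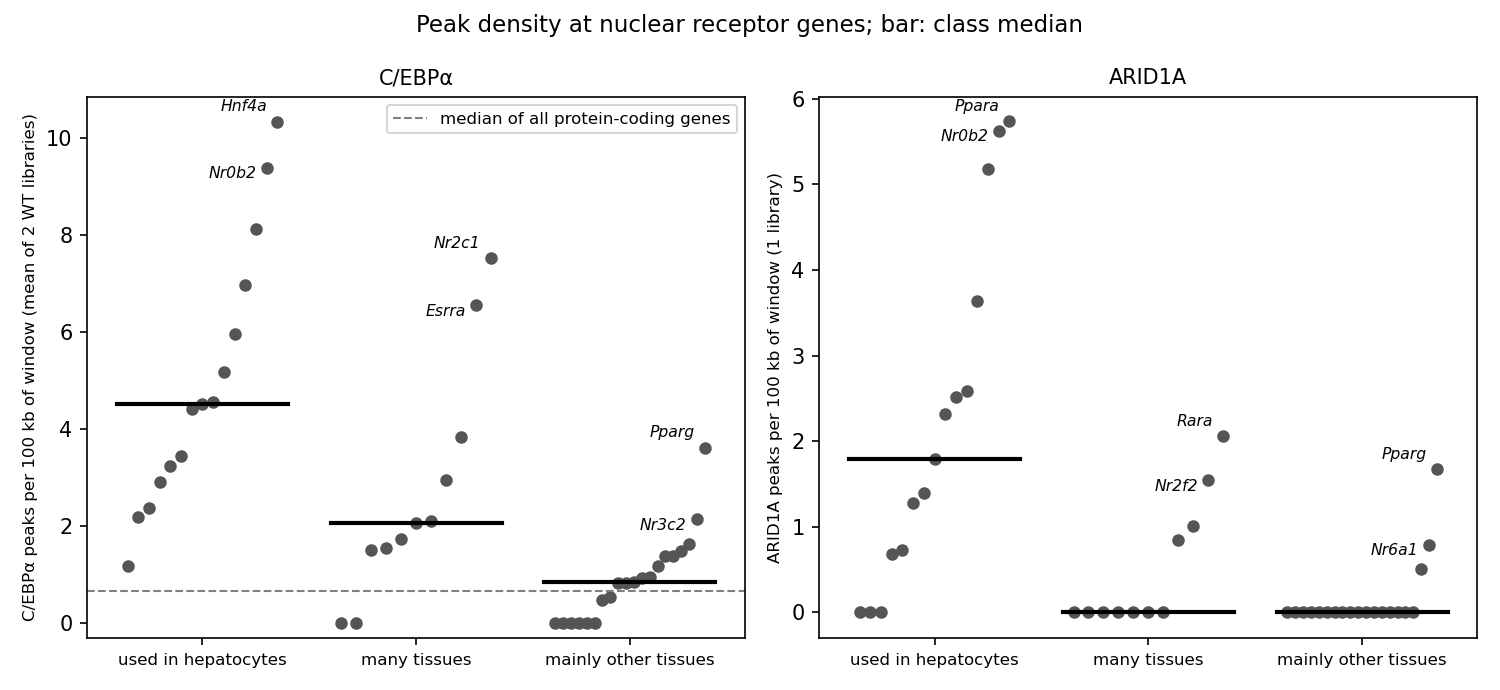
Peaks per 100 kb of window at each of the 46 receptors, by class, for C/EBPα (left, mean of the 2 WT libraries) and ARID1A (right, 1 library); each point is 1 gene, the black bars are class medians and the dashed line is the median of all protein-coding genes. C/EBPα density was highest at Hnf4a (10.3), and the medians of the 3 classes were 4.51, 2.06 and 0.847.

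Hnf4a, which encodes a receptor that maintains hepatocyte identity, had the densest C/EBPα binding of the family, 10.3 peaks per 100 kb. Its window held 10 and 14 peaks in the WT lists and 11 and 12 in the KO lists. Nr0b2, which encodes the corepressor SHP, followed with 9.38, and Nr1h4, which encodes the bile acid receptor FXR, with 8.11. At the low end of the hepatocyte class, Nr1d2 (the clock repressor REV-ERBβ) had 1.18 per 100 kb, from 1 peak in each of the 4 lists. By number alone, Rora, whose product is a clock activator with a very long gene, led with 24 and 30 WT peaks and 24 and 26 KO peaks, followed by Thrb (thyroid hormone receptor β) with 12 and 16 in WT and 12 and 17 in KO. The numbers at these genes overlapped between genotypes, save at Nr0b2, described below.

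The plot of C/EBPα peaks by library shows the same for most of the hepatocyte class. Nr1h4 held 10 and 11 peaks in the WT lists and 10 and 10 in the KO lists. Nr1i2 (the xenobiotic receptor PXR) held 5 and 5 in WT and 5 and 6 in KO. Nr3c1 (the glucocorticoid receptor) held 7 and 7 in WT and 7 and 8 in KO. These 3 genes differed between genotypes by at most 1 peak in the mean. Ppara (the fatty acid receptor of the fasting response) held 5 and 6 in WT and 7 and 6 in KO. Nr1d1 (REV-ERBα) held 3 and 5 in WT and 5 and 5 in KO. Rxra, the common partner of many of these receptors, held 3 and 3 in WT and 3 and 2 in KO. Nr1h3 (liver X receptor α, an oxysterol sensor) held 2 in every list. None of these groups separated.

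**Figure D2:**
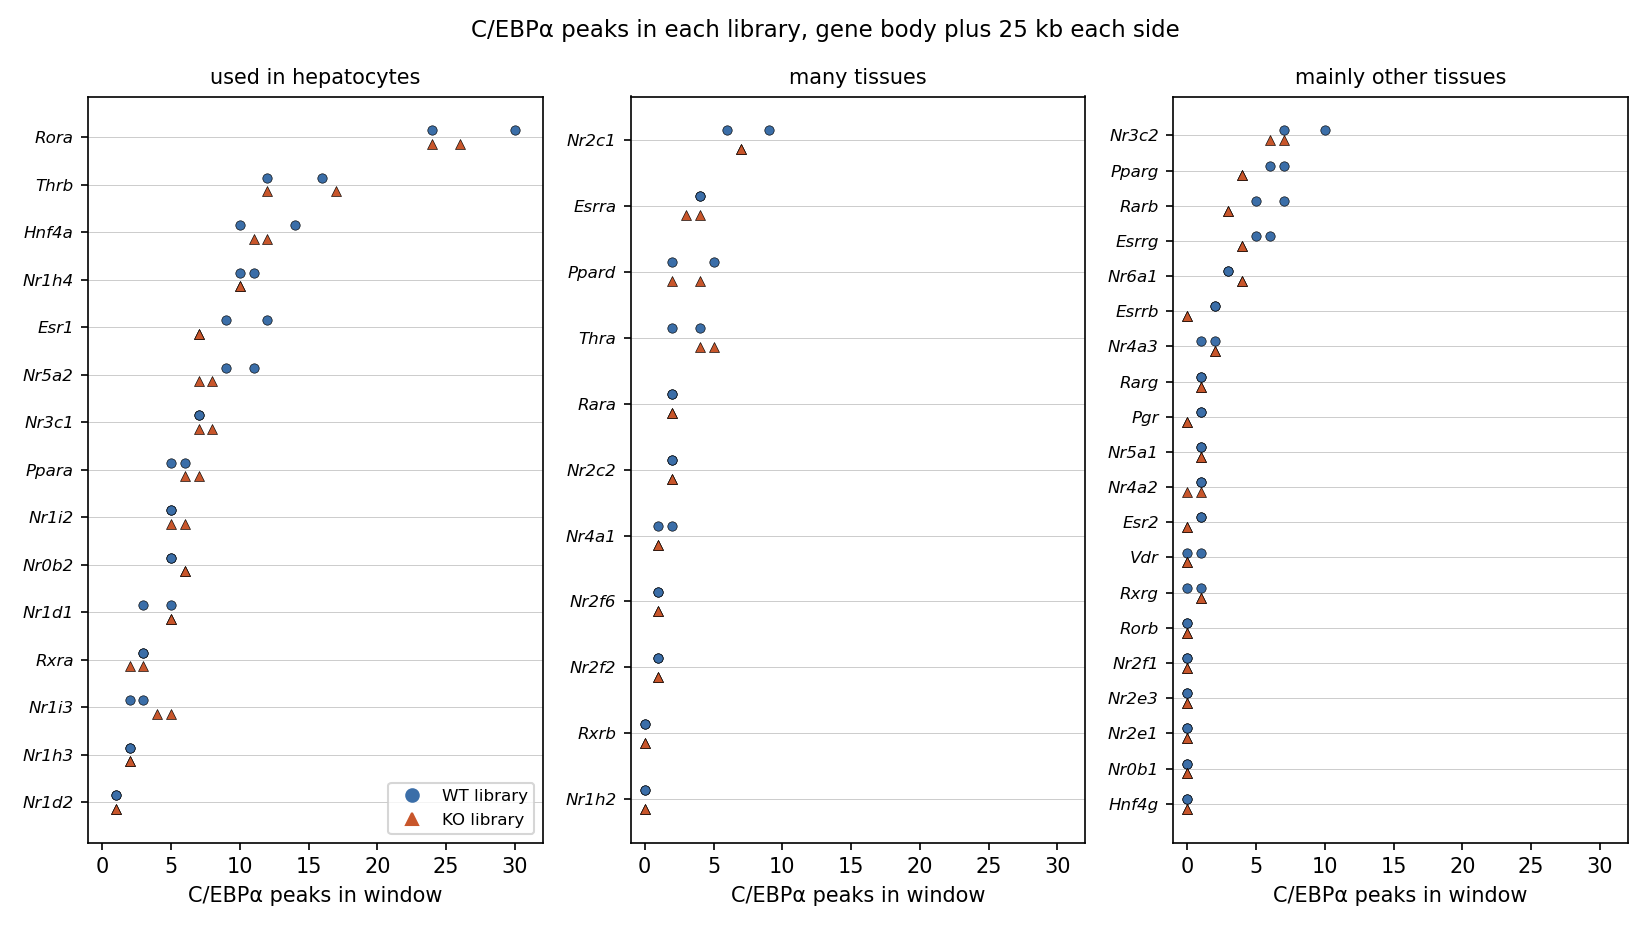
Number of C/EBPα peaks in the window of each receptor (horizontal axis) in the 2 WT (blue circles) and 2 KO (orange triangles) libraries, with receptors ordered within their class by the WT mean; equal values lie on top of each other. Points separate by genotype at 11 receptors, 8 with fewer and 3 with more peaks in both KO libraries.

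Promoter sequence is shown for receptors whose promoter overlapped a C/EBPα region gained in KO and for hepatocyte receptors with a promoter peak in all 4 lists. Nr0b2, Nr3c2 and Rarb were added after their values were seen. Nr3c2 and Rarb are the receptors of other tissues whose promoter held the C/EBP motif and overlapped peaks in all 4 lists. The 250 bases before the annotated start are printed 5′ to 3′ on the gene's strand, from RefSeq on GRCm38.p6, the assembly that mm10 names. They are chr10:94147681-94147930 (plus strand) for Nr2c1, chr2:91195117-91195366 (minus) for the upstream of the nearby starts of Nr1h3, chr1:136960449-136960698 (minus) for Nr5a2, chr4:133553126-133553375 (plus) for Nr0b2, chr8:76902080-76902329 (plus) for Nr3c2 and chr14:16575477-16575726 (minus) for Rarb. Capitals mark a match to the C/EBP motif TTGCNNAA or to the receptor hexamer AGGTCA, each searched on both strands; the motifs do not overlap here.
Nr2c1: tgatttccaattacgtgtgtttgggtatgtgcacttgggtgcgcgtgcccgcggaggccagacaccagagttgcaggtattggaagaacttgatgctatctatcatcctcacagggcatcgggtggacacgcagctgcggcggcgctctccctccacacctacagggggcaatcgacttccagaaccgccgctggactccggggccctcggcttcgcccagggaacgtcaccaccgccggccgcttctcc
Nr1h3: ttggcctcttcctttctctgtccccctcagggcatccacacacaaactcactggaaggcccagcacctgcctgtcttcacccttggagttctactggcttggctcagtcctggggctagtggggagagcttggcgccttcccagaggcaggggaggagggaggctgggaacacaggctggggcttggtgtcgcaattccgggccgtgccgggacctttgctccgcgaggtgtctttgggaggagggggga
Nr5a2: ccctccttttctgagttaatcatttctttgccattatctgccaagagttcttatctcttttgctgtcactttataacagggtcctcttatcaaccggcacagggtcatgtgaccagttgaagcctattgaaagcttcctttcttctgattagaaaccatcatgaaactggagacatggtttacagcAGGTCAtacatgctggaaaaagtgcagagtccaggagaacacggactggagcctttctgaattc
Nr0b2: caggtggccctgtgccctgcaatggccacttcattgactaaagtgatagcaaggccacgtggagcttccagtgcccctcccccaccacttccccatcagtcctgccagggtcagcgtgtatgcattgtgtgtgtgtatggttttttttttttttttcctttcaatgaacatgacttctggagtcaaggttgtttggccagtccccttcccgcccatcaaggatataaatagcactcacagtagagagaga
Nr3c2: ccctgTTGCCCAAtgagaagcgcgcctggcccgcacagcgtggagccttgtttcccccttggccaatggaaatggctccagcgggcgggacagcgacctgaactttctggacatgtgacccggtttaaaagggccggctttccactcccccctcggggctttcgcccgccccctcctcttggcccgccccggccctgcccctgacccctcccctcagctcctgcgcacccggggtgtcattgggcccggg
Rarb: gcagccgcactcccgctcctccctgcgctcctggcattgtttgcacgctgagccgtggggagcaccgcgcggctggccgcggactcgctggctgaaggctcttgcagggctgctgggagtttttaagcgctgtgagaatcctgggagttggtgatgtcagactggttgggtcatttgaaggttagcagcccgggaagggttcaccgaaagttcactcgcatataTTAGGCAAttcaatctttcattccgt
Of these 6, Nr5a2 held the hexamer, starting 64 bases before its start, Nr3c2 and Rarb held the C/EBP motif, and Nr2c1, Nr1h3 and Nr0b2 held neither. Among all 32851 promoters of the RefSeq table, 9.56% held TTGCNNAA and 14% AGGTCA in these 250 bases. Of the 63 promoters matched to 42 receptors, 11 held TTGCNNAA and 11 held AGGTCA, 17.5% in each case. Among the 1428 promoters with C/EBPα peaks in all 4 lists, 24.9% held TTGCNNAA.

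At promoters, taken as 250 bases before to 50 after a start, C/EBPα was present in both genotypes at most receptors that had it. Peaks were found in all 4 lists at 8 of the 63 promoters, against 4.35% of all promoters. These belonged to 7 receptor genes: Nr1h3, Nr5a2 (the bile acid and cholesterol regulator LRH-1), Esrra, Rara, Rarb, Nr3c2 (the mineralocorticoid receptor) and Nr6a1. At Nr0b2, Nr1d1 and Rxrg, the promoter peak was in both KO lists and in WT replicate 2, and WT replicate 1 lacked it. At Nr1h4 and Pparg, 3 lists had a peak within the promoter, and the region over it was kept, since the remaining list had its peak in the same region outside the promoter. Nr1i2 had a promoter peak in KO replicate 2 alone. At Nr2c1, which encodes the orphan receptor TR2, neither WT list and both KO lists had a peak, at chr10:94147467-94148421, and it was wider than 97.3% of peaks in its lists on average. All 6 H3K4me2 lists marked that promoter. Just beyond the gained region, chr10:94148520-94149151, centred 904 bp after the Nr2c1 start, was kept in all 4 lists. The WT lists thus had C/EBPα close to this start, outside the promoter as defined here.

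The same was seen over gene ends, meaning within 1 kb of either annotated end. Nr2c1 was 1 receptor with a gained end peak, and 0 receptors had a lost one. Only Nr2c1, Nr0b2, Nr1d1, Nr1h3, Nr5a2, Esrra and Nr2c2 had an end peak in both KO lists, and only the last 4 in both WT lists. Over all genes, 10.3% of the 2916 with an end peak in both KO lists had gained it. Of the 2391 with an end peak in both WT lists, 5.86% had lost it. The receptors are too few to set against these shares. With 5 kb around each end, Nr2c1 was no longer called, and Pgr was called lost in its place. Nr1h3, Nr5a2, Esrra and Nr2c2 (TR4, the paralogue of TR2) had a C/EBPα end peak in all 4 lists. These 4 are 8.70% of the family, and the share over all genes was 9.72%.

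Across whole windows, the 4 C/EBPα lists merged into 221 regions at receptor genes. A region was called lost where both WT lists and neither KO list had a peak, gained for the reverse, and kept where all 4 had one. The receptors held 19 lost regions of 154 with both WT peaks, 12.3% (95% exact binomial interval 7.59 to 18.6, which covers counting only), while 16.9% were lost in the windows of all protein-coding genes. They held 8 gained regions of 143 with both KO peaks, 5.59%, against 5.62% over all genes. Thus neither share of the whole family stood outside the counting error of its background. With each list limited to its 16178 widest peaks, the family counts turned to 9 lost and 13 gained. The lost share over all genes was then also lower, 13.1% (1353 of 10320), and the gained share over all genes was not computed. This shift is therefore not shown to be particular to the receptors. The remaining regions were 123 kept and 71 present in other combinations of lists.

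The classes differed within the family. Receptors of other tissues had 10 lost regions of 32, 31.3% (interval 16.1 to 50.0), and hepatocyte receptors 6 of 104, 5.77% (2.15 to 12.1). The 2 intervals do not overlap. However, the classes were chosen with earlier results of these data known, so this is a description and no test of the classes. The 10 lost regions lay at Pparg, Rarb, Esrrg, Esrrb, Pgr and Esr2 alone. The background of 16.9% lies above the interval of hepatocyte receptors but inside that of receptors of other tissues. Receptors of many tissues had 3 of 20, 15.0% (3.21 to 37.9). Regions of 1 gene share a window, so these intervals do not measure the spread between genes or libraries. The order held when each library was left out: other tissues against hepatocyte receptors was 38.1% against 13.1% without WT replicate 1, 29.4% against 6.60% without WT replicate 2, 40.6% against 8.57% without KO replicate 1 and 40.6% against 8.65% without KO replicate 2. With the 16178 widest peaks of each list it was 6 of 21 against 3 of 87. With gene bodies alone it was 6 of 24 against 5 of 82, and with 10 kb flanks 7 of 28 against 6 of 93. With 50 kb flanks it was 13 of 37 against 7 of 123. Intervals were not computed for these alternatives, so the lack of overlap is shown only for 25 kb flanks with all peaks and libraries. The share lost over all genes was 27.5% without WT replicate 1 and 19.4% without WT replicate 2. It was 20.4% without KO replicate 1 and 23.4% without KO replicate 2.

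**Figure D3:**
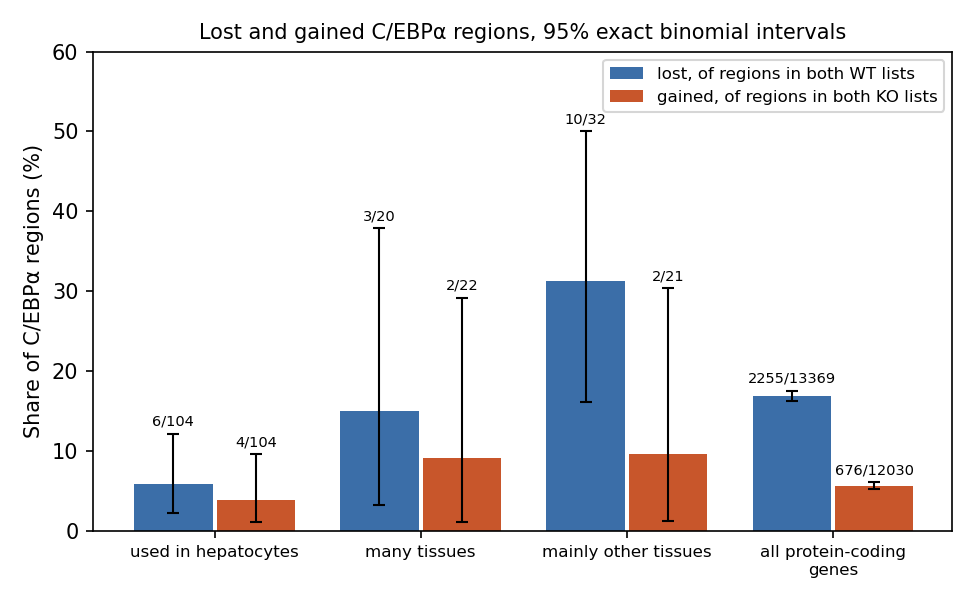
Share of C/EBPα regions lost (blue, as a percentage of those found in both WT libraries) and gained (orange, as a percentage of those found in both KO libraries) for the 3 receptor classes and the windows of all protein-coding genes; numbers above the bars are regions, and whiskers are 95% exact binomial intervals. The lost share was 31.3% for receptors of other tissues and 5.77% for hepatocyte receptors, with 16.9% over all genes.

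Summed over the class, the windows of receptors of other tissues held 35 and 43 C/EBPα peaks in the WT lists and 26 and 28 in the KO lists. The means were 39.0 ± 5.66 (SD, n = 2) and 27.0 ± 1.41, and both KO libraries lay below both WT libraries. For hepatocyte receptors the sums were 107 and 131 in WT and 112 and 120 in KO, 119 ± 17.0 against 116 ± 5.66, and the groups overlapped. They also overlapped for receptors of many tissues, with 22 and 29 against 24 and 26. Over the windows of all protein-coding genes the sums were 23686 and 31757 in WT and 24180 and 26065 in KO, again an overlap. With 2 libraries against 2, no exact permutation test can give a p below 0.33.

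Summed peak numbers of the endothelial, stellate cell and biliary marker sets were also lower in both KO lists. A C/EBPα peak in any list was found at 4 of the 5 endothelial, 1 of the 5 stellate cell and 2 of the 5 biliary markers. Among them, numbers were lower in both KO lists at Kdr, Pecam1, Reln and Sox9 alone. The windows of the 5 endothelial markers held 11 and 13 C/EBPα peaks in the WT lists and 9 and 9 in the KO lists, those of the 5 stellate cell markers 1 and 3 against 0 and 0, and those of the 5 biliary markers 2 and 3 against 0 and 0. The 7 Kupffer cell and leukocyte markers held 3 and 5 against 4 and 4, an overlap. Their part in the result for receptors of other tissues was not tested. The regions of that class were also of middling width: the median width percentile was 45.9 for lost and 45.3 for kept regions, while hepatocyte receptors had 26.0 for lost and 59.7 for kept regions.

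Taken gene by gene, 8 of the 36 receptors with a peak in both WT lists had fewer peaks in both KO lists, 22.2%, against 19.1% over all genes. Of these 8, 6 were among the 12 such receptors of other tissues, 2 among the 15 hepatocyte receptors and 0 among the 9 of many tissues. More peaks in both KO lists were found at 3 of 33 receptors, 9.09%, against 8.33% over all genes. Both family counts were thus near the background. With the lists limited to equal numbers of widest peaks, 5 receptors had fewer and 12 had more, so the prevailing direction changed with this limit. The limit alters both list length and which peaks are kept, and their parts were not tested. The shares over all genes were not computed at this setting.

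Pparg, which encodes the adipocyte receptor PPARγ, held 7 and 6 peaks in the WT lists and 4 and 4 in the KO lists. The regions lost there were chr6:115462749-115463225 inside the gene, marked by H3K4me2 in all 3 WT and in 2 KO lists, and chr6:115511466-115511922, 21062 bp beyond the gene. A region inside the gene at chr6:115420728-115422243 was kept in all 4 lists and overlapped an ARID1A peak. Rarb (retinoic acid receptor β) held 5 and 7 peaks in the WT lists and 3 and 3 in the KO lists. It lost chr14:16496808-16497582, marked in all 3 WT and 1 KO H3K4me2 lists, and chr14:16561577-16561932, both inside the gene, and kept the promoter peak shown above.

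The estrogen-related and steroid receptors of other tissues followed. Esrrg, an orphan receptor of oxidative tissues, held 5 and 6 peaks in the WT lists and 4 and 4 in the KO lists, with lost regions at chr1:187755589-187755948 and chr1:188118159-188118635 and a gained one at chr1:187662425-187662915, all in its gene body. Esrrb, known from pluripotent cells, held 2 and 2 in WT and 0 and 0 in KO; its lost regions were chr12:86473612-86473991 in the gene and chr12:86539487-86539927, 17859 bp outside. Pgr (the progesterone receptor) held 1 and 1 in WT and 0 and 0 in KO, at chr9:8970319-8970693, 1708 bp beyond the gene. Esr2 (estrogen receptor β) also went from 1 and 1 to 0 and 0, but its region, chr12:76194550-76194913, lay nearer to Tex21. At Esrrb, Pgr and Esr2 no C/EBPα peak was left in the KO lists.

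In the hepatocyte class, Esr1 (estrogen receptor α) and Nr5a2 had the lower numbers. Esr1 held 9 and 12 peaks in the WT lists and 7 and 7 in the KO lists, with lost regions at chr10:4667074-4667466 and chr10:4673334-4673608 in the gene body, close to regions that were kept. Nr5a2 held 9 and 11 in WT and 7 and 8 in KO without a lost region, since each region of both WT lists that one KO list missed was present in the other. Its kept regions included the promoter. The other losses in this class were single regions among many: 1 of 10 at Hnf4a (chr2:163564598-163564927, with no H3K4me2 in any list), 2 of 24 at Rora and 1 of 6 at Nr3c1. Their numbers of peaks overlapped between genotypes.

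**Figure D4:**
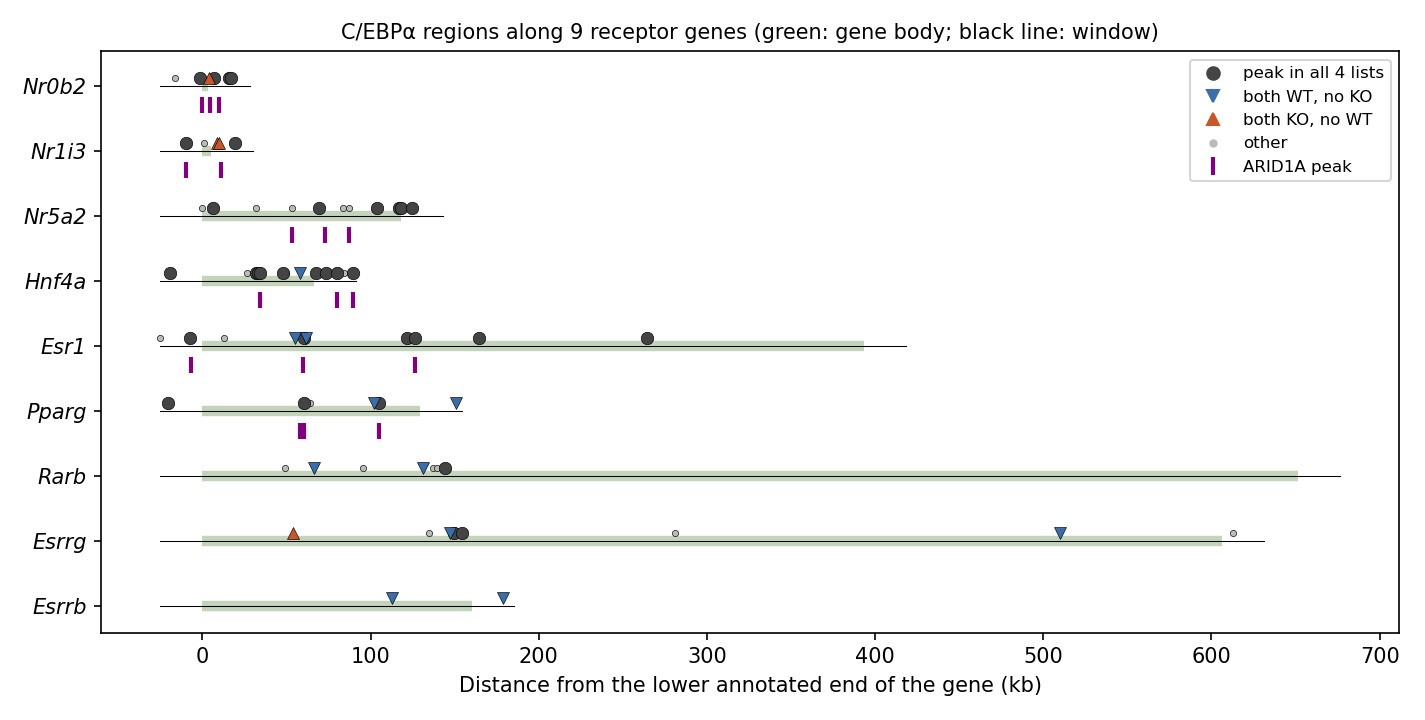
C/EBPα regions along 9 receptor genes, placed by distance in kb from the gene's lower annotated end (green bar, gene body; black line, window with 25 kb on each side); dark circles are regions in all 4 lists, blue triangles pointing down lost, orange triangles pointing up gained, small grey circles other combinations, and purple ticks ARID1A peaks. Lost regions lie at Pparg, Rarb, Esrrg and Esrrb as well as at Esr1 and Hnf4a, and none of them carries an ARID1A peak.

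The receptors with more C/EBPα peaks in KO were Nr0b2, Nr1i3 and Nr6a1. Nr0b2 held 5 and 5 peaks in the WT lists and 6 and 6 in the KO lists. The added region, chr4:133557123-133557845, lay 437 bp beyond the gene, was among the wider peaks (percentile 90.2), and overlapped an ARID1A peak and H3K4me2 in all 3 WT lists and 1 KO list. Nr1i3, which encodes the drug-sensing receptor CAR, held 2 and 3 in WT and 5 and 4 in KO. Both of its gained regions, chr1:171222342-171222824 and chr1:171223806-171224381, lay in the neighbouring Apoa2, which encodes an apolipoprotein, and the first also touched Tomm40l. Nr6a1, known from germ cells, held 3 and 3 in WT and 4 and 4 in KO. Its added region, chr2:38775045-38775395, also overlapped an ARID1A peak.

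Receptors of many tissues had no separated peak numbers. Nr2c1 held 6 and 9 peaks in the WT lists and 7 and 7 in the KO lists, with the gained promoter region described above and a lost one in the neighbouring Ndufa12. Rara (retinoic acid receptor α) held 2 in every list, although it lost chr11:98918367-98918692, which lay in Cdc6, and gained chr11:98953887-98954209, in its own gene and over an ARID1A peak. Esrra (estrogen-related receptor α, a regulator of mitochondrial genes) held 4 and 4 in WT and 4 and 3 in KO, and lost chr19:6920306-6920624, 1343 bp from a start and marked by H3K4me2 in all 6 lists. Among the other receptors of this class, Thra held 2 and 4 in WT and 4 and 5 in KO, and Ppard 2 and 5 against 2 and 4.

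Tested across all windows by limma on log2(peak number + 1), C/EBPα peak number was called at 5 of 37 receptors at an adjusted p under 0.05, against 14.1% of all 11517 windows tested. These were Esrrb, Esr2 and Pgr, lower in KO, and Nr0b2 and Nr6a1, higher. At each of the 5, the libraries of a genotype held equal numbers, so their estimated spread was 0. The fit made false calls on simulated counts, so its calls are not used here. An exact binomial test on the summed peaks of each genotype, added after seeing this, called 0 of 37 receptors and 0 of 11517 windows, with 58 windows and 0 receptors at an unadjusted p under 0.05. The smallest exact p of a receptor was 0.132, for 4 peaks against 0 at Esrrb. At Esr2 and Pgr, 2 peaks against 0 gave an exact binomial p of 0.505. The test thus cannot call windows with so few peaks, and its lack of calls there shows nothing.

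ARID1A itself was found in the windows of 19 of the 46 receptors, 41.3%, against 20.2% of all genes. They were 12 of the 15 hepatocyte receptors, 4 of the 11 of many tissues (Nr2c1, Nr2f2, Ppard and Rara) and 3 of the 20 of other tissues (Nr3c2, Nr6a1 and Pparg). The hepatocyte receptors without a peak were Nr1d1, Nr1d2 and Nr1h3. Rora held 10 ARID1A peaks, Ppara 7, Thrb 6, Nr1i2 5 and Nr3c1 4. Hnf4a, Nr0b2, Nr1h4, Nr5a2 and Esr1 held 3 each, Nr1i3 2 and Rxra 1. With 1 library there is no replicate of these values. The median window was 98.4 kb for the family, 122 kb for hepatocyte receptors and 67.2 kb over all genes. The part of window length in these counts was not tested.

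Ppara stood out in the strength of these peaks as far as width shows it. Its widest, chr15:85771192-85772393, spanned 1202 bp, wider than 99.9% of the list, and lay inside the gene over a C/EBPα region that all 4 lists held. Another, chr15:85734987-85735858, lay at a gene end with H3K4me2 in all 6 lists and overlapped no C/EBPα region. At Nr1i2 the widest, chr16:38287345-38288119, spanned 775 bp and also overlapped a kept C/EBPα region. Ppara and Nr0b2 were the receptors with an ARID1A peak at a gene end, 4.35% of the family against 2.23% of all genes. The Nr0b2 peak, chr4:133552757-133553358, covered most of the promoter sequence printed above.

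ARID1A overlapped 37 of the 123 kept C/EBPα regions of receptors, 30.1%, and 30.2% of kept regions over all genes. It overlapped 0 of the 19 lost regions, against 6.12% over all genes, and 3 of the 8 gained regions (at Nr0b2, Rara and Nr6a1), against 7.69%. With 19 and 8 regions these shares rest on few counts. Lost regions were also narrower than kept ones, with a median width percentile of 31.1 against 57.4.

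H3K4me2 marked receptor genes by class in both genotypes. A peak lay at a gene end in all 6 lists at 33 of the 46 receptors, against 51.0% of all genes. These were 14 of 15 hepatocyte receptors, all but Nr3c1, which had 1 list, 10 of 11 of many tissues and 9 of 20 of other tissues. Nr0b1 (DAX1) and Nr5a1 (SF1), both known from adrenal and gonad, had none in any list. Gene ends leave out starts inside a gene. Promoters of Rara and Rarb, which are outside these counts, were marked in all 6 lists, as was a C/EBPα region inside Nr3c1. By promoter, 21 of 42 receptors were marked in all 6 lists. The median share of the window covered in WT was 20.8% for hepatocyte receptors, 19.3% for those of many tissues and 1.88% for those of other tissues, against 4.23% over all genes. Hnf4g and Rorb, without any C/EBPα peak, were marked at an end in all 6 lists.

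No receptor had less H3K4me2 cover in all 3 KO lists than in all 3 WT lists, 0 of 43 against 0.885% of all windows, or more, 0 of 41 against 0.0651%. Rxra was covered over 31.7, 69.0 and 33.3 kb in WT and 9.34, 71.6 and 25.3 kb in KO, the widest spread between libraries of 1 genotype among those named here. Ppara was covered over 34.1, 57.4 and 35.8 kb in WT and 18.1, 50.4 and 26.2 kb in KO. Hnf4a was covered over 28.2, 40.4 and 22.1 kb in WT and 14.7, 34.3 and 17.4 kb in KO. In each case the high value was replicate 2 and the low KO value replicate 1, and the groups overlapped. Endothelial markers were also covered most in replicate 2 and least in KO replicate 1, and their part in these values was not tested. KO replicate 1 had the lowest cover, or was level with the lowest, at all 46 receptors and at 19860 of the 21883 genes. The exact permutation p of the 46 receptors was never below 0.4, and 3 libraries against 3 allow 0.1 at the least.

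The H3K4me2 libraries with the same replicate number deviated together, least clearly for replicate 3. They were also compared as pairs, a comparison added after seeing the data. WT replicate 3 correlated more with KO replicate 1 (0.294) than with KO replicate 3 (0.189), so the third pair is an assumption. KO was below WT in all 3 pairs at 5 receptors, Hnf4a, Ppara, Nr3c1, Nr4a1 and Esr2, of 43 marked in all WT lists, against 11.8% of all windows, so the count was near the background. KO was above WT in all 3 pairs at 0 of 41, against 2.86%. At Ppara the mean was 42.4 ± 13.0 kb in WT and 31.6 ± 16.8 kb in KO (SD, n = 3), and at Hnf4a 30.2 ± 9.30 and 22.2 ± 10.6 kb. Pparg, with 5.12, 18.7 and 9.73 kb in WT and 0.99, 7.64 and 9.74 kb in KO, was lower in 2 of 3 pairs. limma on log2(kb + 1) called 0 of 44 receptors and 0 of 18354 windows, with 46 windows and 0 receptors at an unadjusted p under 0.05. With the replicate number as a block it called 0 receptors and 5 windows, 0.0272%. Libraries of 1 genotype differed widely, so the lack of calls does not show equal cover.

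**Figure D5:**
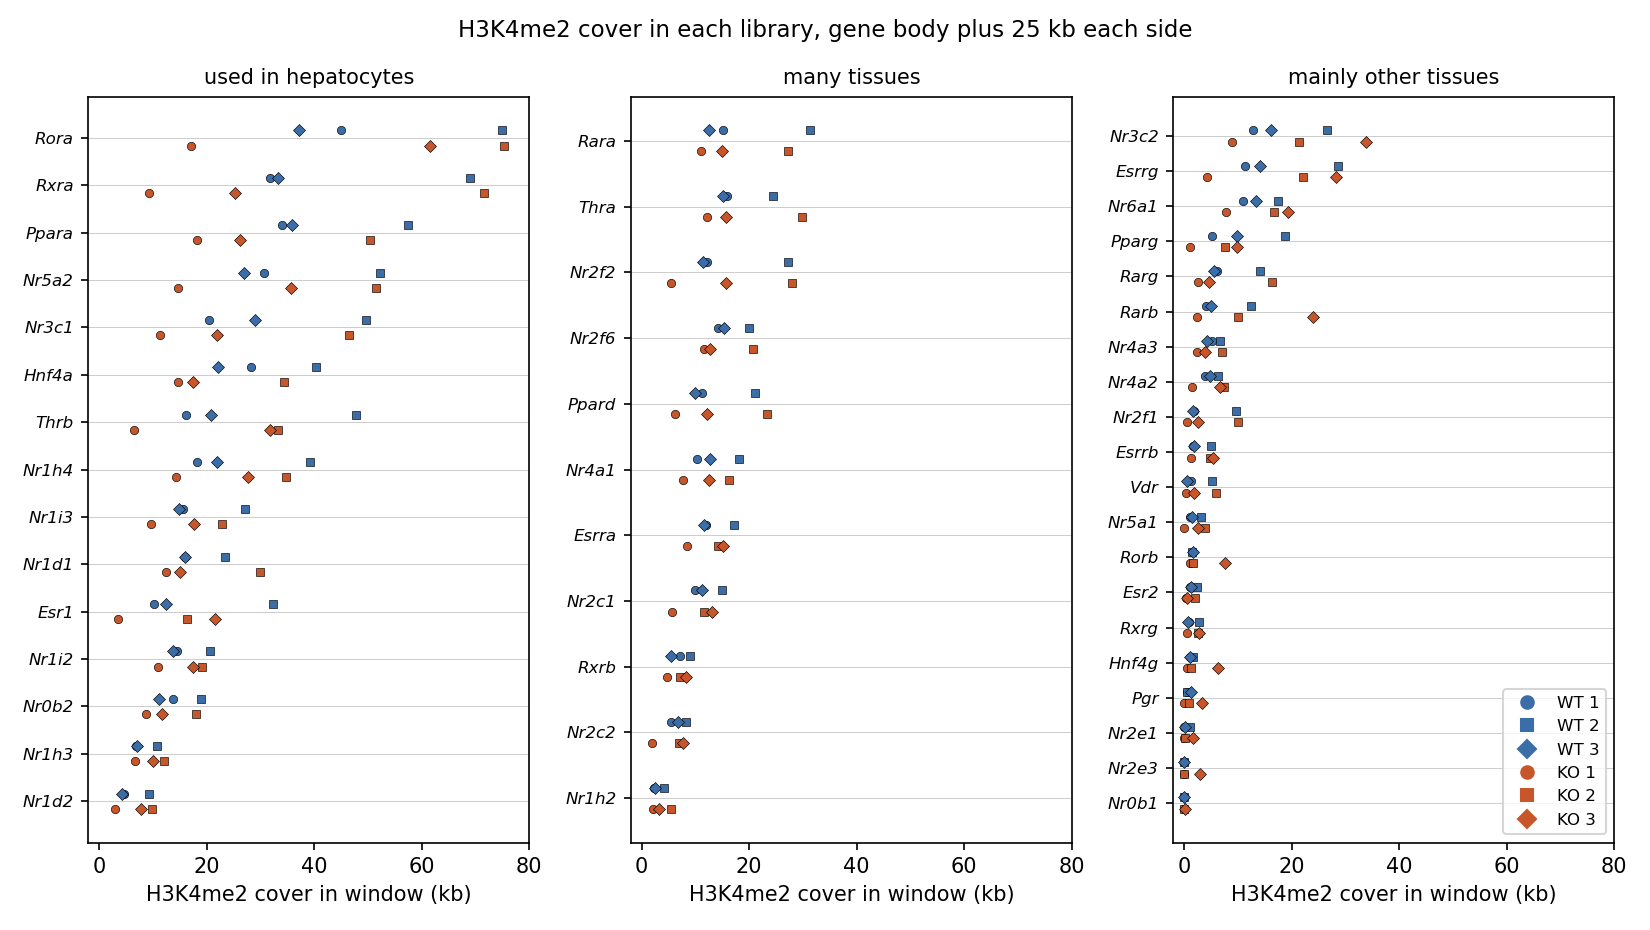
H3K4me2 cover in kb of the window of each receptor in the 3 WT (blue) and 3 KO (orange) libraries, with circles, squares and diamonds for replicates 1, 2 and 3. KO replicate 1 is lowest or level with the lowest at all 46 receptors, and no receptor has all KO points on one side of all WT points.

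Kept C/EBPα regions of receptors lay in H3K4me2 peaks of all 6 lists in 45 of 123 cases, 36.6%, and in none in 6, 4.88%. Over all genes the shares of kept regions were 40.4% and 5.82%. Of the 19 lost regions, 1 was marked in all 6 lists, at Esrra, and 5 in none, while over all genes 5.32% and 27.8% of lost regions were so marked. Among the 10 lost regions of receptors of other tissues, 4 had H3K4me2 in all 3 WT lists (at Pparg, Rarb, Esrrg and Pgr), against 493 of 2255 over all genes. Each of these was marked in 1 or 2 of the KO lists. The KO lists differ in length as described above, and the part of list length in this was not tested.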

How the data were processed

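Per the submitters' processing notes, the build was mm10 and the tools included HOMER, MACS2 2.0.10.20131216, Picard and Bowtie2 2.2.3; roles and order are not given in the sources used here. The authors deposited 1 peak list per library. The C/EBPα and V5 lists hold positions alone. The deposited H3K4me2 lists add a fold over background, a score and −log10 p and q values; only −log10 q was used, to rank and filter peaks. Input samples (10) were not used.

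Peaks were assigned to windows by at least 1 bp of overlap, with RefSeq coordinates; H3K4me2 was measured as covered kb. Regions are C/EBPα peaks of the 4 lists merged at 1 bp. The gene annotation used here has no strand, so gene ends take in both annotated ends, and no exon or intron is given. Only peak numbers are known, not read depth, so a missing peak is not shown to be absent binding. limma 3.58.1 (R 4.3.3) was fitted over all windows with a value in at least 2 lists, with a pseudocount of 1, Benjamini-Hochberg adjustment and a threshold of 0.05; permutation tests were exact and two-sided. The scripts were tested on simulated data: overlap counts were recovered, the limma fit of H3K4me2 recovered changes of known size once cover was scaled to equal totals, and the limma fit of C/EBPα numbers did not hold its error rate. The simulated H3K4me2 libraries differed little within a genotype, and the changes were large and placed in windows of high cover. The simulation thus does not show what the reported fit on unscaled cover could detect. Python 3.11.15 with numpy 2.4.6, pandas 2.3.3, scipy 1.17.1 and matplotlib 3.10.9 was used.

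Same-numbered H3K4me2 libraries deviated together from their group means (correlation over 18354 windows 0.531, 0.570 and 0.189). WT replicate 3, however, correlated more with KO replicate 1 (0.294) than with KO replicate 3, so the values do not show the third pair. The labels name no pairs, and taking the numbers as pairs is an assumption. For C/EBPα the correlation was 0.0526, and the numbers were not taken to pair them.

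The receptors, classes and lists were chosen with earlier results of these data known. Receptors are named where they have a lost or gained region, separated values, a limma call, an ARID1A peak at a gene end, one of the 5 highest WT C/EBPα numbers, or belong to the hepatocyte class; other names were chosen after their values were seen. Alternatives varied the flank, the peak assignment, peak strength, the libraries and the fit.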

Additional observations from a re-analysis of the deposited data

How the results depend on the processing

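The lost regions numbered 19 as reported, 12 with gene bodies alone, 8 with the peaks of median width or wider, 9 with the same number of widest peaks per list, and 20 to 40 with 1 library left out (40 without WT replicate 1, where the share lost over all genes was also higher, 27.5%). Gained regions numbered 8, then 5 with gene bodies alone, 13 with the same number of widest peaks, and 10 to 18 with 1 library left out. Fewer peaks in KO were found at 8 receptors, then at 3 with the wider peaks, 5 with the same number of widest peaks and 9 to 15 with 1 library left out. More were found at 3, then at 12 with the same number of widest peaks and at 3 to 10 with 1 library left out. Lost or gained end peaks were found at 1 receptor, which was Pgr in place of Nr2c1 with 5 kb around ends, and at 1 to 3 with 1 library left out. For gained regions, fewer or more peaks and end peaks, shares over all genes were not computed in these alternatives. The density difference of 3.66 was 5.51 with gene bodies alone, 4.58 with 10 kb flanks, 3.02 by nearest gene, 2.18 with the wider peaks and 3.11 with the same number of widest peaks. limma calls of C/EBPα number were 5, then 2 with the wider peaks, 6 to 19 with 1 library left out and 0 by the exact binomial test, added after seeing the data. Without a WT library limma called 19 of 34 receptors, but also 5961 of 10730 or 6012 of 10308 windows. The cause of these shifts was not tested. Less H3K4me2 in KO was found at 0 receptors, then at 1 with equal numbers of peaks of highest −log10 q (Pparg), 3 with cover scaled to equal totals (Esr1, Nr2c2 and Pparg; added after seeing the data; 722 of all 21883 windows had less and 279 more) and 0 to 8 with 1 library left out, the 8 without KO replicate 2. More was found at 0, and at 0 to 1 with 1 library left out. The family counts for ARID1A stayed between 15 and 21 in all 6 alternatives.

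With the replicate block, limma called 5 receptors and 1595 windows for C/EBPα, against 5 and 1626 without it, and 0 receptors and 5 windows for H3K4me2, against 0 and 0 without it, with 1 receptor in place of 0 at an unadjusted p under 0.05. Taking same-numbered libraries as pairs, 5 receptors had less H3K4me2 in KO in all pairs. The block ended or added no call of a receptor in either limma fit.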

Other observations

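Genes that work with the receptors were looked at in the same way. Of 20 coregulators, the proteins that receptors recruit, all 20 had a C/EBPα peak in some list and 10 had an ARID1A peak in the window, 50.0%, against 20.2% of all genes. The median window of the coregulators was 135 kb, against 67.2 kb over all genes, and the part of window length was not tested. Peak numbers were lower in both KO lists at 3 of 17 (Ncoa2, Ncoa6 and Kdm1a) and higher at 2 of 18 (Ncor1, the main hepatic corepressor, and Prmt1). These shares, 17.6% and 11.1%, were near those over all genes, 19.1% and 8.33%. The names Ncoa2, Ncor1 and Prmt1 were chosen after their values were seen. Ep300, which encodes the acetyltransferase p300, gained a C/EBPα peak at a gene end, as did 10.3% of all genes with an end peak in both KO lists. Lost regions were 4 of 47, 8.51% (95% exact binomial interval 2.37 to 20.4), against 16.9% over all genes.

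Of 40 known target genes of liver receptors, 29 had an ARID1A peak in the window, 72.5%, against 20.2% of all genes. Lost C/EBPα regions were 13 of 155, 8.39% (4.54 to 13.9), against 16.9% over all genes, and gained ones 6 of 141, 4.26%, against 5.62%. Cyp8b1, which encodes the sterol 12α-hydroxylase of bile acid synthesis, gained a gene-end peak, and Abcc3, which encodes a basolateral bile acid exporter, lost one. Of all genes with an end peak in both KO lists, 10.3% had gained it, and of those with one in both WT lists, 5.86% had lost it. Numbers were lower in both KO lists at 5 of 38 (Pdk4, Cyp3a11, Cyp2b10, Abcc3 and Nfil3) and higher at 4 of 36 (Cyp8b1, Plin2, Tat and Apoc3), most of them named after their values were seen. Over all genes these shares were 19.1% and 8.33%.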
